A study of Mus musculus with 12 samples.

Results

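The genes of atrial heart muscle Nppa, Myl7, Myl4, Sln, Bmp10, Dkk3 and Nr2f2 were followed in the cardiac RNA-seq of 12 mouse hearts as a measure of how much atrial RNA each sample held. The 7 genes were taken by symbol from 55885 genes listed, as known genes of atrial muscle and its identity, by a choice made with earlier results of these data known. All 7 were among the 13815 genes that reached a TPM of 1 (transcripts scaled by length to a fixed total per heart) in at least 3 hearts, the set that was tested.

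The study asked what loss of STING, a sensor protein of innate immunity, changes in hearts exposed to cisplatin (CDDP), a platinum drug used against solid tumours that can injure heart muscle. The hearts came from males of the strain C57BL/6 in the labels and C57BL/6J in the methods. The methods give the mice as 8 weeks old and do not say whether this was at the first injection or at collection. There were 4 groups of 3: wild-type hearts without cisplatin (Saline), wild-type hearts after cisplatin (CDDP), Tmem173-/- hearts without cisplatin (STING-/-) and Tmem173-/- hearts after cisplatin (STING-/-+CDDP). Cisplatin was injected into the peritoneum at 6 mg/kg on days 1, 8 and 15, and hearts were collected on day 22. The hearts without cisplatin are labelled untreated, whereas the methods describe a saline group. Wild-type and Tmem173-/- mice came from different suppliers, so genotype and colony of origin cannot be told apart. The study kept 6 mice per group, and each sample used here was labelled as heart, with no chamber named. The labels do not say that the 3 samples of a group came from separate animals, so p-values measure the spread between these samples.

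Atrial and ventricular muscle are built from related but different proteins. Atrial cells use the myosin light chains encoded by Myl7 and Myl4 where ventricular cells use those of Myl2 and Myl3, hold their calcium pump back with sarcolipin (Sln), and store and release atrial natriuretic peptide (Nppa). The nuclear receptor encoded by Nr2f2 sets atrial identity in the embryo, Bmp10 encodes a growth factor of the BMP family made by right atrial muscle in the adult mouse, and Dkk3 encodes a secreted glycoprotein of the Dickkopf family. In RNA from a piece of tissue, fewer cells of a type and less RNA per cell cannot be told apart.

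Sequence upstream of the start site was read for the members with an entry in the RefSeq promoter table (GRCm38.p6), which were 5 of the 7. The upstream 250 bases of 3 genes are printed here, 5′ to 3′ on the gene's own strand, because the results below turn on how these genes follow each other or part: Nppa at chr4:148000472-148000721 (+), Myl7 at chr11:5898783-5899032 (-) and Bmp10 at chr6:87428744-87428993 (+). Capitals mark a GATA motif (GATA after A or T and before A or G, on either strand), a TATAAA box and a CArG box.
Nppa: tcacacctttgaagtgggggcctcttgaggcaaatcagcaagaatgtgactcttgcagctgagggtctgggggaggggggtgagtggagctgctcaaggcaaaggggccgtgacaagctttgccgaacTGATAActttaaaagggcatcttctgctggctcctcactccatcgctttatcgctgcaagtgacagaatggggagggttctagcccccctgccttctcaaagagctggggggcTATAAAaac
Myl7: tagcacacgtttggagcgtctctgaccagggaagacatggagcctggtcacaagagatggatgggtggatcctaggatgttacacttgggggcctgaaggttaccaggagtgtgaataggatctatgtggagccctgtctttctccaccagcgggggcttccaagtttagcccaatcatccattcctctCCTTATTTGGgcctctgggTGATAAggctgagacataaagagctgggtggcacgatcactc
Bmp10: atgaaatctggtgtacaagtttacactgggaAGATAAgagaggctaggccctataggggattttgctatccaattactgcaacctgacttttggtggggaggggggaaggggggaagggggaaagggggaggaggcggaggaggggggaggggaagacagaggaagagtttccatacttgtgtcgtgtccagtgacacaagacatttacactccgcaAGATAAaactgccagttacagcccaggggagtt
A GATA motif lay at -42 to -37 from the start site in Myl7, at -122 to -117 in Nppa, and at both -219 to -214 and -33 to -28 in Bmp10. Nr2f2 also held 1, at -118 to -113, and Myl4 held none in this window. The same letters were present in 26.5% of 32851 promoter windows of this length, so their presence in these genes is a description. Myl7 had a CArG box at -61 to -52, which 1.47% of windows held, and Nppa had TATAAA at -9 to -4, which 12.4% held. The other motifs searched on both strands were a T-box site (AGGTGT, in 11.8% of windows), an NKX2-5 site (TNAAGTG, in 10.1%) and a MEF2 site (in 0.508%). Nppa held the T-box site at -248 to -243 and the NKX2-5 site at -241 to -235, and none of the other 4 promoters held any of these 3 motifs.

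Little about sample quality can be read from TPM. The values of each heart summed to between 999999 and 1000001, a total that TPM fixes in advance and that says nothing of quality. Between 19680 and 21024 genes were above 0, and mitochondrially encoded genes took 18.8% to 27.6% of TPM. Depth and RNA integrity cannot be read from TPM, so no counting error is given. Sting1, the gene knocked out, was at 5.62 to 22.1 TPM in the 6 wild-type hearts and at 2.87 to 5.96 TPM in the 6 Tmem173-/- hearts, ranges that overlapped. The Saline hearts stood furthest apart in atrial genes. Saline 2 was the highest of the 12 hearts for all 7 genes, and Saline 1 and Saline 3 were the lowest hearts for Myl7, Myl4, Sln and Dkk3. Each difference in group means from the Saline group, and the interaction, is therefore also given without Saline 2. That heart was picked by the values of these same genes, so p-values without it are a description and not a test.

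Myl7 encodes the atrial regulatory light chain (chromosome 11, 5896637 to 5898782, minus strand, GRCm38, as are the positions of the other genes). Its level was 5.68, 6537 and 2.48 TPM in Saline hearts 1, 2 and 3, and 486, 86.3 and 1778 TPM in CDDP hearts 1, 2 and 3. STING-/- hearts 1, 2 and 3 held 393, 2090 and 1569 TPM, and STING-/-+CDDP hearts 1, 2 and 3 held 1685, 202 and 46.4 TPM. The highest and the lowest heart, 2636-fold apart, belonged to the same group, and every group overlapped with every other. After the group means were taken out, the SD of Myl7 between hearts was 3.52 on the log2(TPM + 1) scale, the largest of the 13815 tested genes, where the median gene had 0.264. Differences between group means accounted for 23.2% of its variance, below the median of 42.5% over all tested genes.

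Myl4, the gene of the atrial essential light chain (chromosome 11, 104550663 to 104595753, plus strand), gave nearly the same values. They were 4.77, 5883 and 3.05 TPM in the Saline hearts, 459, 99.6 and 1735 TPM after cisplatin, 492, 1867 and 1479 TPM in STING-/- hearts, and 1538, 181 and 60.5 TPM in STING-/-+CDDP hearts. Its residual SD of 3.39 was exceeded by 2 tested genes. The level of Myl4 lay between 84.0% and 131% of that of Myl7 in each of the 12 hearts, although Myl4 itself ranged 1929-fold.

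Sln, the gene of the small membrane peptide that inhibits the calcium pump of the sarcoplasmic reticulum (chromosome 9, 53850164 to 53854560, plus strand), was close to absent from 2 hearts. Saline hearts held 0.09, 833 and 0.08 TPM, and CDDP hearts held 167, 27.8 and 654 TPM. In STING-/- hearts it was at 68.0, 281 and 190 TPM, and in STING-/-+CDDP hearts at 383, 33.4 and 13.4 TPM. The order of hearts was close to that of Myl7, with Saline 2 on top and CDDP 3 second.

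Nppa (chromosome 4, 148000722 to 148002079, plus strand) encodes the hormone that atrial muscle releases when stretched, and had the highest TPM, a level per length, of the 7 genes in every heart. It was at 300, 25687 and 333 TPM in Saline hearts, 2680, 640 and 10454 TPM in CDDP hearts, 2042, 8597 and 5623 TPM in STING-/- hearts and 5419, 486 and 210 TPM in STING-/-+CDDP hearts. Unlike the light chains and Sln, it did not approach 0 where Myl7 did: Saline 1 and Saline 3, with 5.68 and 2.48 TPM of Myl7, held more Nppa than STING-/-+CDDP 3, with 46.4 TPM of Myl7. As background, ventricular muscle of adult mice makes some Nppa, and makes more under load. The ratio of the highest to the lowest heart was 122.

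Dkk3 (chromosome 7, 112116017 to 112159057, minus strand) was at 2.24, 241 and 1.86 TPM in Saline hearts, 34.1, 21.2 and 228 TPM in CDDP hearts, 45.2, 98.1 and 99.1 TPM in STING-/- hearts and 71.5, 45.1 and 12.1 TPM in STING-/-+CDDP hearts. Saline 2 and CDDP 3 were again the highest hearts, and the values ranged 130-fold.

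Bmp10 (chromosome 6, 87428994 to 87437677, plus strand) was the member listed at 0 in some hearts. It was listed at 0, 193 and 0 TPM in Saline hearts and at 0, 3.88 and 3.95 TPM in CDDP hearts. STING-/- hearts held 31.8, 18.1 and 114 TPM, and STING-/-+CDDP hearts 0.02, 0 and 0.01 TPM. All 3 STING-/- hearts thus held Bmp10 and none of the 3 STING-/-+CDDP hearts exceeded 0.02 TPM, although STING-/-+CDDP 1 was the fourth highest heart for Myl7.

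Nr2f2 (chromosome 7, 70351944 to 70366735, minus strand) varied least. The Saline hearts held 6.52, 18.8 and 9.05 TPM, the CDDP hearts 6.10, 7.53 and 15.4 TPM, the STING-/- hearts 9.84, 15.2 and 9.63 TPM, and the STING-/-+CDDP hearts 14.8, 8.85 and 6.30 TPM. The range over hearts was 3.08-fold and the residual SD was 0.58 on the log2 scale, which 1222 tested genes exceeded. For Sln, Nppa, Bmp10 and Dkk3 the residual SDs were 3.27, 2.48, 2.39 and 2.15, exceeded by 3, 11, 15 and 25 tested genes.

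**Figure D1:**
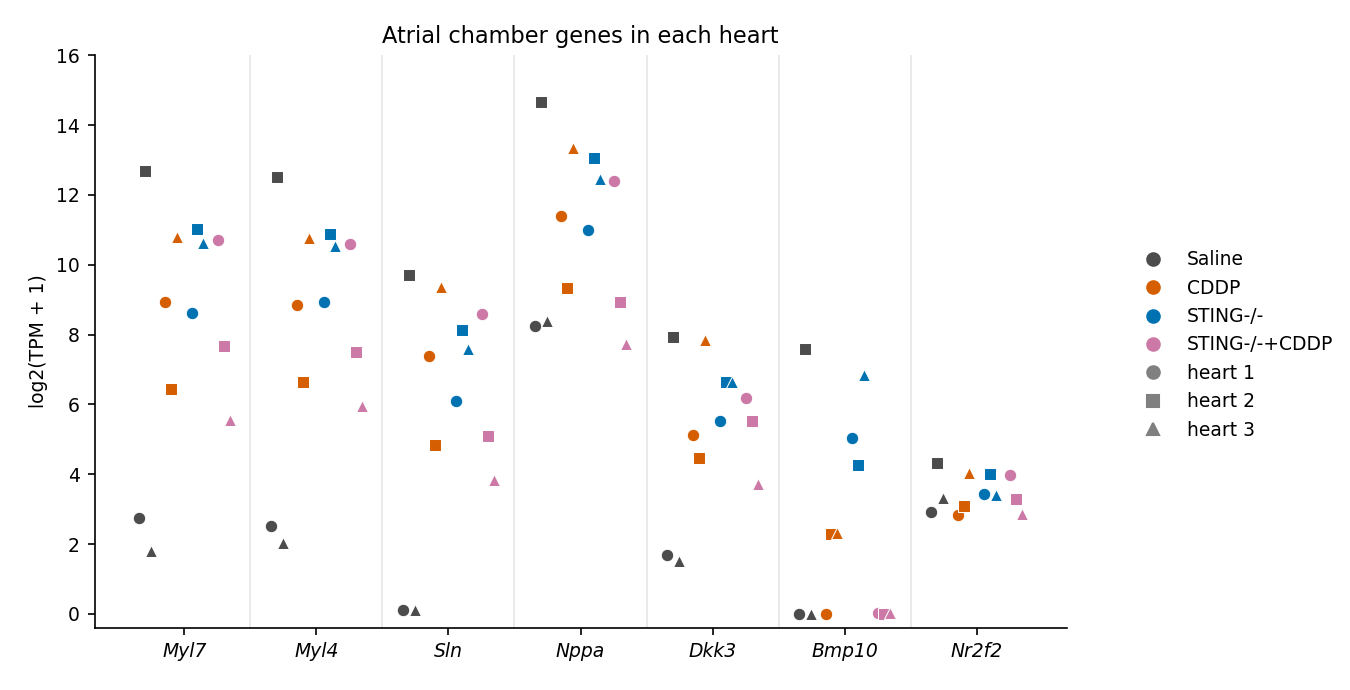
The vertical axis gives log2(TPM + 1) of the 7 genes in each of the 12 hearts, with groups by colour and hearts 1, 2 and 3 of a group by circle, square and triangle. Saline 2 is the top point for every gene, Saline 1 and 3 lie at the bottom for Myl7, Myl4, Sln and Dkk3, and Bmp10 reaches 0 in hearts that hold the other genes.

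The share of the atrial form within each light chain pair does not depend on how hearts were scaled against each other. Myl7 made up 0.0397%, 52.2% and 0.0219% of the sum of Myl7 and Myl2 TPM in Saline hearts, 6.55%, 0.894% and 24.1% in CDDP hearts, 3.46%, 19.4% and 11.7% in STING-/- hearts and 17.4%, 1.75% and 0.458% in STING-/-+CDDP hearts. The means were 17.4% ± 30.1, 10.5% ± 12.1, 11.5% ± 7.96 and 6.53% ± 9.43 (SD, n = 3 hearts per group), so each SD was close to or above its mean outside the STING-/- group. Myl4 made up 19.8% ± 34.2, 13.8% ± 14.7, 16.5% ± 8.80 and 8.67% ± 11.96 of the sum of Myl4 and Myl3 TPM in the same order. All 4 comparisons of groups overlapped for both shares, and the two-sided exact permutation p lay between 0.4 and 1, with an adjusted p of 1 over the 8 comparisons. With 3 hearts against 3 this test cannot give a p under 0.10. The sum of Myl7 and Myl2 itself ranged from 7391 to 14309 TPM.

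**Figure D2:**
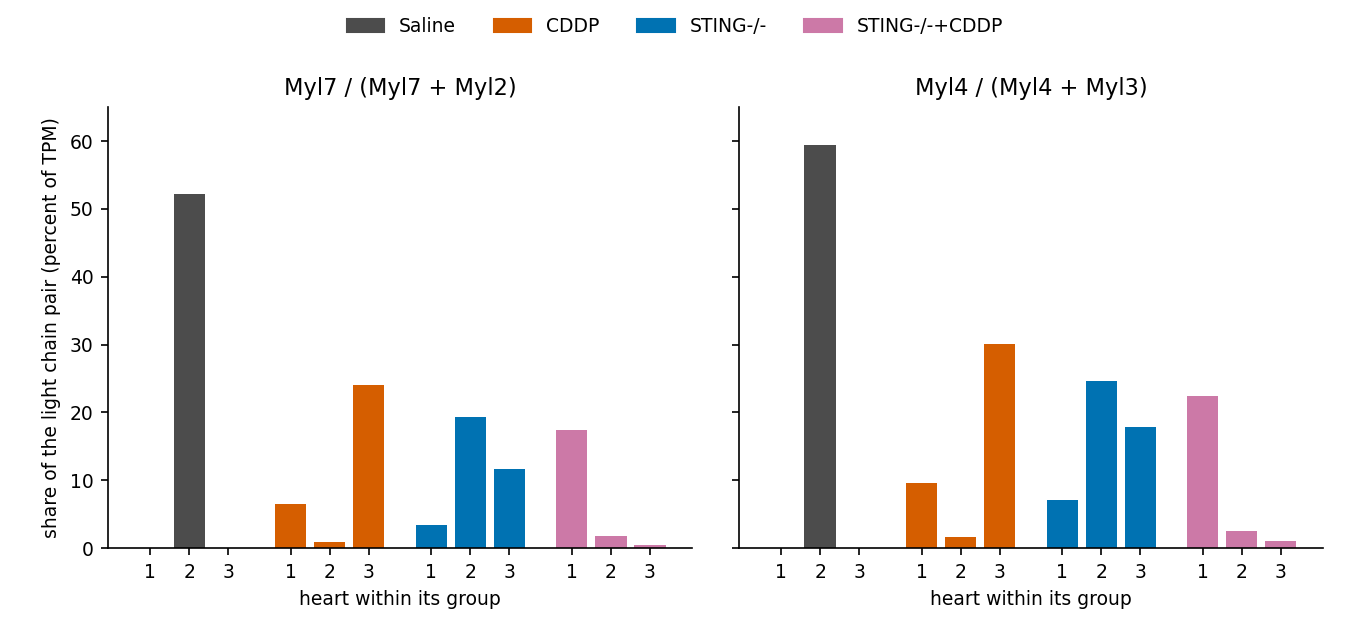
Bars, from 0, give the percent of TPM of a light chain pair that came from the atrial gene, Myl7 of Myl7 and Myl2 on the left and Myl4 of Myl4 and Myl3 on the right, for hearts 1 to 3 of each group. Saline 2 stands at 52.2% and 59.4%, and Saline 1 and 3 are too low to be seen, at 0.0219% to 0.0543%.

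The light chains, Sln, Dkk3 and Nppa varied together from heart to heart. On the log2(TPM + 1) scale over the 12 hearts, Myl4 followed Myl7 with a Pearson r of 0.998 and a Spearman rho of 0.993, Sln with 0.985 and 0.979, Dkk3 with 0.976 and 0.944, and Nppa with 0.914 and 0.951. The 10 pairs among these 5 genes gave r from 0.883 to 0.998. Each of these 4 relations with Myl7 had an adjusted permutation p of 6.0e-05 for r (6 relations, 100000 resamples). The remaining members followed less closely, Nr2f2 with r = 0.714 and rho = 0.755 (adjusted permutation p = 0.00838 for r and 0.00799 for rho) and Bmp10 with r = 0.632 and rho = 0.701 (adjusted permutation p = 0.0161 and 0.0143).

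The relations remained with group means taken out. After the mean of each group was subtracted, r with Myl7 was 0.998 for Myl4, 0.995 for Sln, 0.974 for Nppa, 0.971 for Dkk3, 0.820 for Nr2f2 and 0.783 for Bmp10. For Bmp10 that value does not describe each group. STING-/- 2, with the most Myl7 of its group (2090 TPM), held the least Bmp10, 18.1 TPM beside 31.8 and 114 TPM. Saline 2, the highest heart for both genes, was not left out of these correlations. Saline 1 and Saline 3 were the 2 hearts farthest from the median of Myl7. Without them r was 0.998 for Myl4, 0.978 for Nppa, 0.963 for Sln, 0.933 for Dkk3 and 0.854 for Nr2f2, so these 5 relations did not rest on that pair. For Bmp10 r was 0.591 and rho 0.578, little lower than over 12 hearts, with an adjusted permutation p of 0.0711 for r, so with these 10 hearts its relation with Myl7 did not pass.

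**Figure D3:**
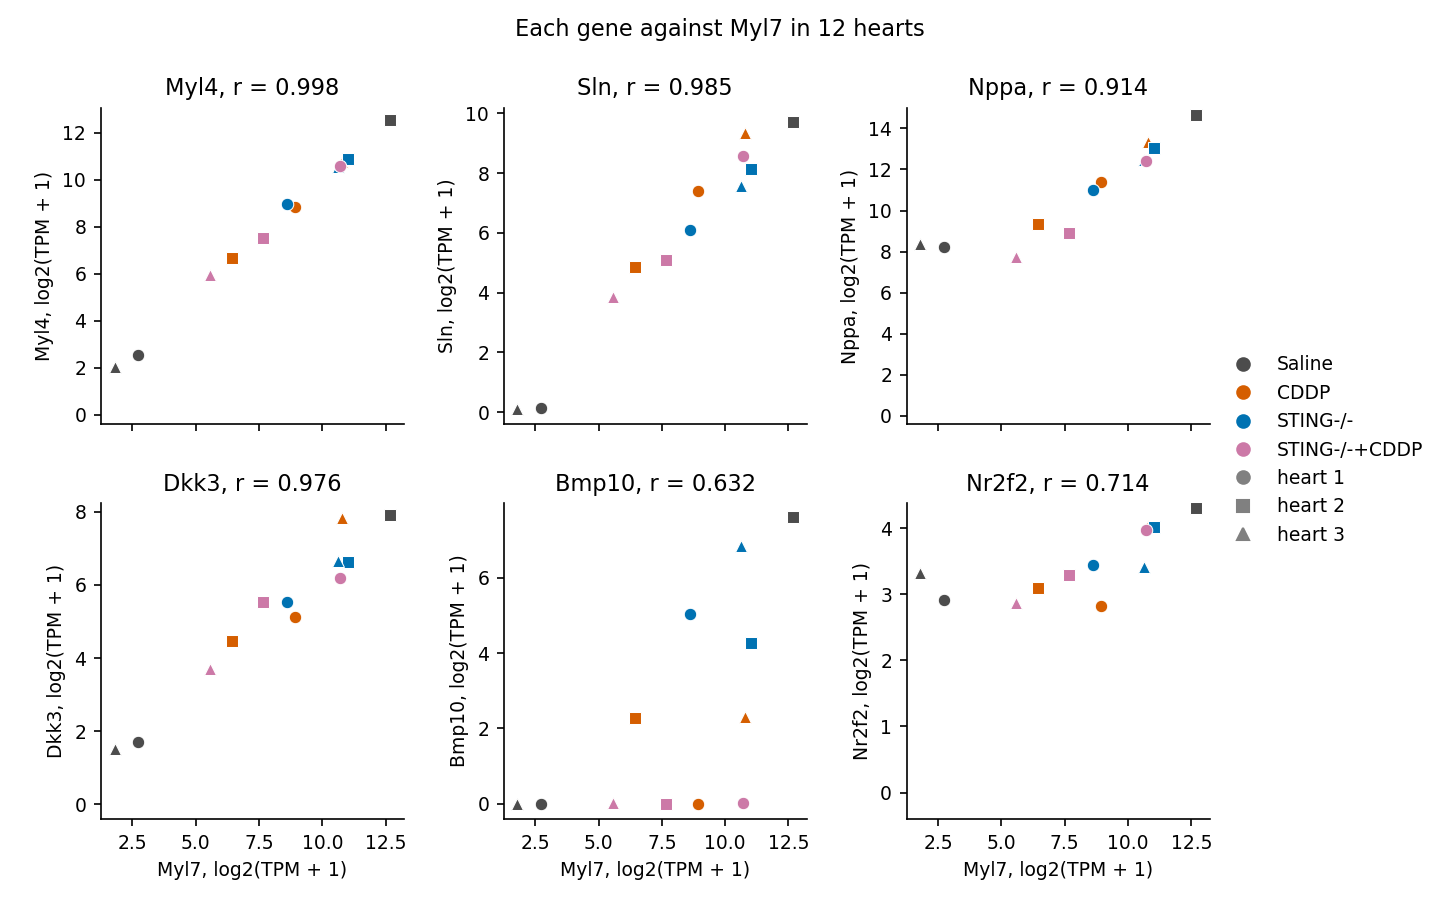
Each panel plots one gene against Myl7 in the same heart, both as log2(TPM + 1), with the Pearson r over 12 hearts above it. Myl4, Sln, Nppa and Dkk3 climb along one line in all groups, Nppa flattens at the 2 hearts with the least Myl7, and Bmp10 lies at 0 in hearts across the range of Myl7.

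No member passed the threshold, an adjusted p under 0.05, in any comparison between groups (limma on log2(TPM + 1) over all 13815 tested genes, Benjamini-Hochberg adjustment, 8 residual degrees of freedom). At an unadjusted p under 0.05, 1 of 7 members passed in STING-/-+CDDP against STING-/- and 0 of 7 passed in each of the other contrasts. The share of all tested genes at such a p was 13.5% in that contrast, 33.9% in CDDP against Saline, 19.8% in STING-/-+CDDP against CDDP, 3.69% in STING-/- against Saline and 11.7% for the interaction. Differences below are on that scale, which understates changes of low genes. The standard error of a member's difference ran from 0.41 for Nr2f2 to 2.39 for Myl7, beside a median of 0.22 over all tested genes. Differences of several units could therefore not be told from the spread between hearts.

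Cisplatin in wild-type mice left 0 of 7 members called, where 18.9% of all tested genes were called. The difference of CDDP from Saline was 2.99 for Myl7 (95% interval -2.24 to 8.22), 3.06 for Myl4, 3.89 for Sln (-0.98 to 8.75), 2.10 for Dkk3, 0.93 for Nppa, -0.20 for Nr2f2 and -1.001 for Bmp10, with limma adjusted p from 0.246 to 0.775. The median of the 7 was 2.10, beside -0.00 over all tested genes. The direction depends on the scale for 3 of 7 members: the mean TPM was lower in CDDP than in Saline hearts for Myl7 (784 against 2182), Myl4 (765 against 1964) and Nppa (4591 against 8773). None of the 7 separated the hearts of the 2 groups, whereas 32.0% of tested genes did. This comparison turned on Saline 2. Without it, 4 of 7 members were called higher after cisplatin, where 18.4% of all genes were called: Myl7 by 6.46 (limma adjusted p = 0.0122), Myl4 by 6.48 (0.00776), Sln by 7.08 (0.00672) and Dkk3 by 4.21 (0.0104). The Saline group then consisted of the 2 hearts with the least Myl7, and Bmp10 and Nr2f2 changed sign, to 1.53 and 0.20. With Saline 1 or Saline 3 left out instead, 0 of 7 members were called, beside 1241 and 1736 of 13815 genes. The difference of Myl7 was then 1.49 and 1.02.

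Between the cisplatin groups, 0 of 7 members were called, beside 1.22% of all genes. STING-/-+CDDP differed from CDDP by -0.74 for Myl7, -0.74 for Myl4, -1.35 for Sln, -1.67 for Nppa, -1.52 for Bmp10, -0.68 for Dkk3 and 0.07 for Nr2f2, with limma adjusted p from 0.624 to 0.953. The interval for Myl7 was -5.97 to 4.49. None of the 7 separated the groups, whereas 22.7% of tested genes did.

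Without cisplatin, all 7 members had a higher mean on the log2(TPM + 1) scale in STING-/- than in Saline hearts, by 4.35 for Myl7 (interval -0.88 to 9.58), 4.42 for Myl4, 3.96 for Sln, 2.85 for Bmp10, 2.56 for Dkk3, 1.75 for Nppa and 0.10 for Nr2f2. The mean TPM was lower in STING-/- hearts for 6 of 7, such as Myl7 (1351 against 2182) and Nppa (5421 against 8773), with Nr2f2 the exception. None was called, with a limma adjusted p of 1 for each, and 0.0724% of all genes were called. None separated the groups, where 7.64% of tested genes did. Without Saline 2, Bmp10 was called at 5.38 (limma adjusted p = 0.0263), where 0.0796% of all genes were called, and the other 6 were not. These were 7.82 for Myl7 (adjusted p = 0.0744), 7.84 for Myl4 (0.0655), 7.16 for Sln (0.0906), 4.66 for Dkk3 (0.0907), 3.87 for Nppa (0.452) and 0.50 for Nr2f2 (0.891).

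In Tmem173-/- mice the means of all 7 members were lower after cisplatin, and none was called, where 0.934% of all genes were called. The light chains, Sln, Dkk3 and Nppa varied together from heart to heart. Their common sign, here and in STING-/- against Saline, is therefore not a set of separate results. STING-/-+CDDP differed from STING-/- by -2.11 for Myl7 (interval -7.33 to 3.12), -2.10 for Myl4, -2.49 for Nppa, -1.43 for Sln, -1.13 for Dkk3 and -0.24 for Nr2f2. Bmp10 differed by -5.36 (standard error 1.62, interval -8.92 to -1.81), with a p of 0.00663 before and 0.158 after limma's adjustment over all genes. It was the 1 member of 7 whose hearts separated in this comparison, as 24.2% of tested genes did. Bmp10 passed when Saline 2 was left out (adjusted p = 0.00703, beside 0.992% of all genes), with the same difference and a smaller estimate of the spread.

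The difference between the cisplatin responses of both genotypes was also tested. It was -5.09 for Myl7, -5.17 for Myl4, -5.32 for Sln, -4.36 for Bmp10, -3.42 for Nppa, -3.24 for Dkk3 and -0.04 for Nr2f2, with standard errors up to 3.38 and limma adjusted p from 0.483 to 0.985. No member was called, where 0.00724% of all genes, or 1 gene, was. Without Saline 2 it was -8.56 for Myl7, -8.58 for Myl4, -8.51 for Sln, -6.90 for Bmp10, -5.54 for Nppa, -5.34 for Dkk3 and -0.44 for Nr2f2, with limma adjusted p from 0.0807 for Bmp10 to 0.695 for Nr2f2, and again 0 of 7 members and 0.00724% of all genes were called.

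**Figure D4:**
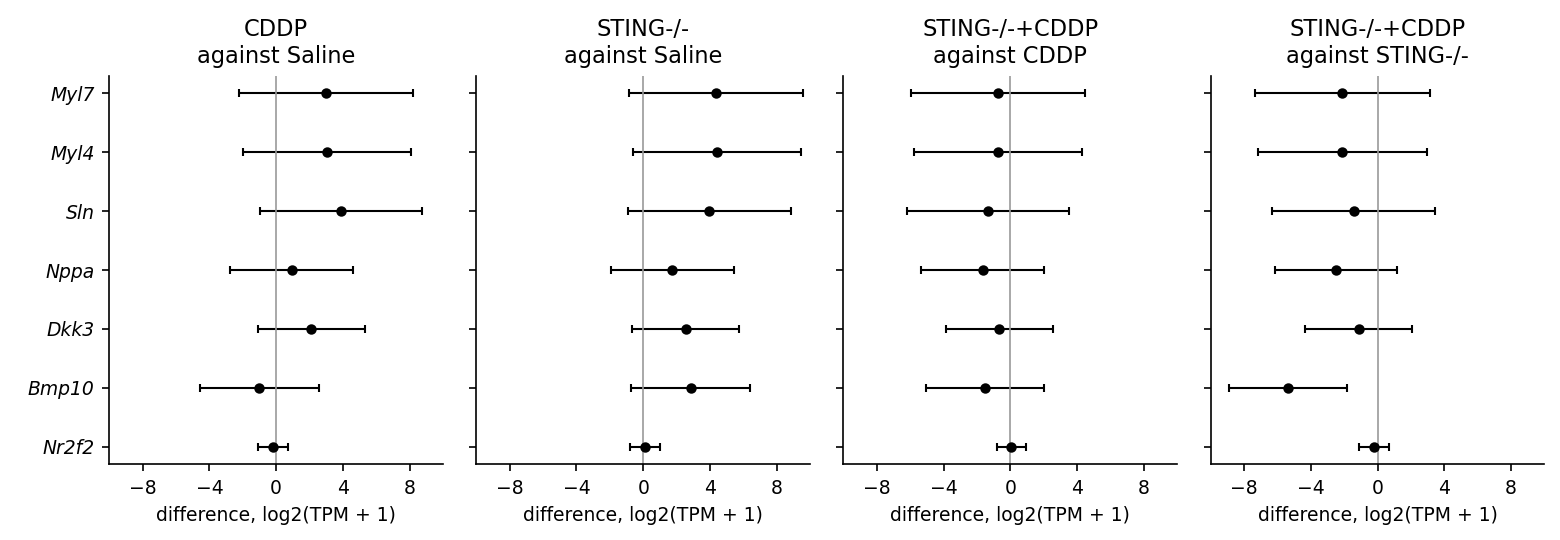
Points give the difference between group means on the log2(TPM + 1) scale and bars its 95% interval, for the 7 genes in 4 comparisons of groups. The intervals span 0 for each gene except Bmp10 in STING-/-+CDDP against STING-/-, which runs from -8.92 to -1.81.

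Because the genes followed Myl7 so closely, each was also expressed as a percent of the Myl7 level of its own heart, a measure chosen after the values had been seen. Sln stood at 1.58%, 12.7% and 3.23% of Myl7 in Saline hearts, 34.4%, 32.2% and 36.8% in CDDP hearts, 17.3%, 13.5% and 12.1% in STING-/- hearts and 22.7%, 16.6% and 28.9% in STING-/-+CDDP hearts. The CDDP hearts were tight, at 34.4% ± 2.30 (SD, n = 3), while their Myl7 levels ranged from 86.3 to 1778 TPM. They lay above all 3 Saline hearts and all 3 STING-/-+CDDP hearts. The Saline hearts 1 and 3 rest on Sln levels under 0.1 TPM, and Saline 2, with the most Myl7, was at 12.7%.

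Nppa per Myl7 was 5276%, 393% and 13433% in Saline hearts and 551%, 741% and 588% in CDDP hearts. It was 520%, 411% and 358% in STING-/- hearts and 322%, 241% and 454% in STING-/-+CDDP hearts. The latter group lay below all CDDP hearts, at 339% ± 107 against 627% ± 101 (SD, n = 3). Bmp10 was at 8.09%, 0.866% and 7.26% of Myl7 in STING-/- hearts and at no more than 0.0216% in STING-/-+CDDP hearts, without overlap. For Myl4 no comparison separated the groups, with means of 99.0% to 104%, nor did any for Dkk3 or Nr2f2.

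Of the 24 comparisons of such percents, these 4 were without overlap (Sln in 2 of them), each with the smallest two-sided exact permutation p that 3 against 3 allow, 0.10, and an adjusted p of 0.565. Among all genes taken as a ratio to Myl7, 0.253% separated CDDP from Saline and 0.391% separated STING-/-+CDDP from CDDP. STING-/- was separated from Saline by 0.261%, and STING-/-+CDDP from STING-/- by 0.825%. The tested genes other than the members had a median r of 0.274 with Myl7. A gene that does not follow Myl7 carries the 2636-fold range of Myl7 into its ratio. These shares are therefore not a like background for the members.

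With log2(TPM + 1) of Myl7 as a covariate in limma, also added after the values were seen, 21.0%, 3.61%, 0.0362% and 1.26% of all genes were called for, in order, cisplatin in wild-type mice, genotype under cisplatin, genotype without cisplatin and cisplatin in Tmem173-/- mice. Of the 6 members other than Myl7, 1 was called in the first and none in the others. Sln was higher in CDDP than in Saline hearts at equal Myl7, by 1.12 (standard error 0.27, interval 0.53 to 1.70, limma adjusted p = 0.0163). Without Saline 2 the value was 1.01 and the adjusted p was 0.294, so the call was lost. Saline 1 and 3 then remained, with 5.68 and 2.48 TPM of Myl7 and Sln under 0.1 TPM. No Saline heart lay within the Myl7 range of the CDDP hearts, 86.3 to 1778 TPM, as Saline 2 was at 6537 TPM. Neither value therefore rests on hearts of like Myl7. Nppa at equal Myl7 was -1.16 in STING-/-+CDDP against CDDP (interval -2.05 to -0.27) and -1.04 in STING-/-+CDDP against STING-/-. It was -1.12 in CDDP against Saline and -1.23 in STING-/- against Saline. The limma adjusted p ran from 0.0883 to 0.620, and the interaction of Nppa was 0.071 (interval -1.31 to 1.45). The fit assumes a straight line, from which Nppa departed in Saline 1 and 3, at 5276% and 13433% of Myl7. Its differences from Saline and its interaction therefore cannot be read as Nppa per atrial RNA. Bmp10 in STING-/-+CDDP against STING-/- was -4.24 (interval -6.66 to -1.83, adjusted p = 0.0952, and 0.0414 without Saline 2).

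**Figure D5:**
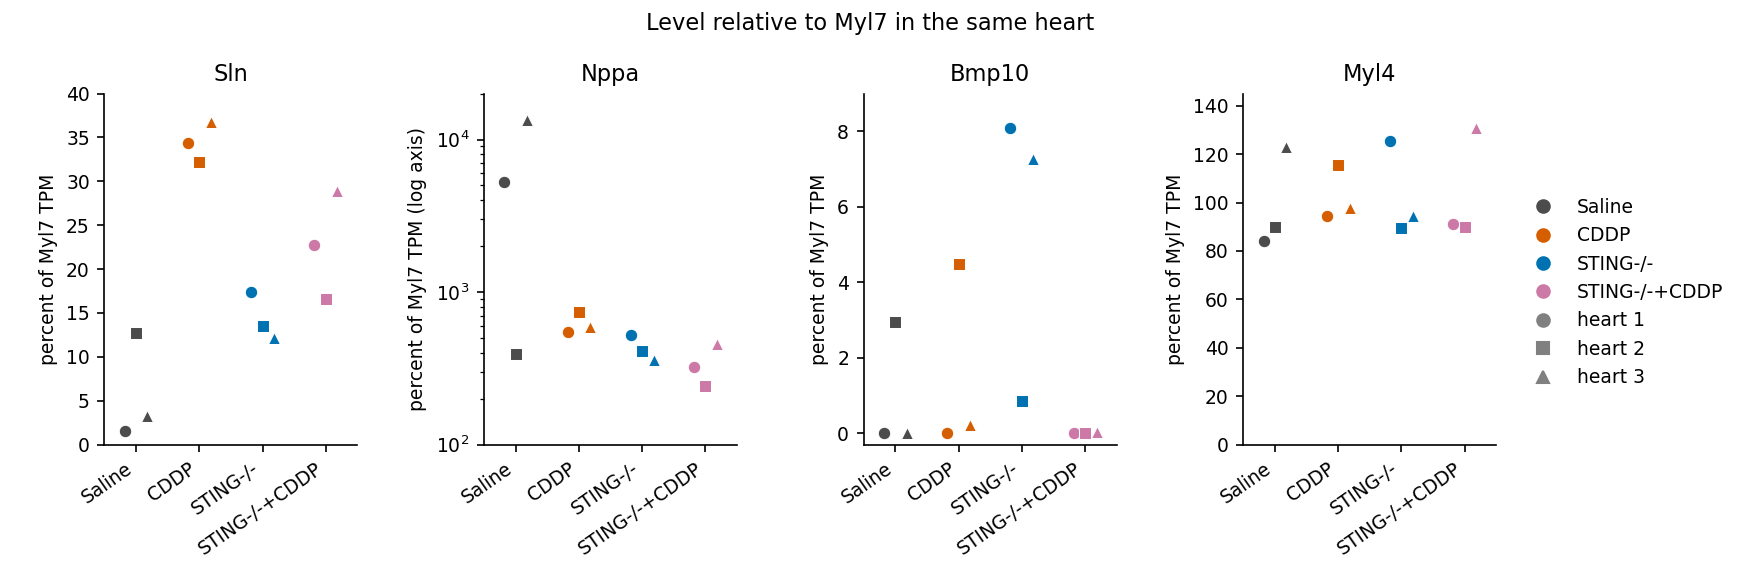
The level of Sln, Nppa (log axis), Bmp10 and Myl4 is given as a percent of the Myl7 TPM of the same heart, by group, with circle, square and triangle for hearts 1, 2 and 3. Myl4 stays at 84.0% to 131% throughout, the CDDP hearts stand highest for Sln, and the STING-/-+CDDP hearts are at or near 0 for Bmp10.

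The remaining genes most like Myl7 over the 12 hearts were, in order, Mybphl (r = 0.985), Ces2g (0.969), Stard10 (0.956), Lmntd1 (0.954), Igfbp5 (0.935), Tmem163 (0.932), Sds (0.932), Il33 (0.928), Pam (0.921), Slco2a1 (0.919), C530008M17Rik (0.919) and Ccl19-ps3 (0.918). After group means were subtracted their r ran from 0.915 for Slco2a1 to 0.989 for Mybphl. Mybphl, a myosin-binding protein of atrial muscle, was at 0.23, 368 and 0.08 TPM in Saline hearts and between 2.83 and 130 TPM in the other 9. Pam encodes the amidating enzyme that is abundant in atrial secretory granules, and ranged from 156 to 1576 TPM. Of 13808 tested genes other than the members, 219 had an r of at least 0.8 with Myl7, 24 had at least 0.9 and 9 had at most -0.8, and the median r was 0.274. The lowest was Scgb1c1 (r = -0.881), followed by Ndufs6 (-0.879), Atp5j2 (-0.864) and Sdhb (-0.845), nuclear genes that encode mitochondrial proteins.

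Further atrial genes were read as lists, whose counts in CDDP against Saline stand beside 18.9% of all tested genes called and 33.9% at an unadjusted p under 0.05. Among 8 genes of atrial working muscle (Mybphl, Stard10, Sbk2, Pam, Smpx, Clu, Myl1 and Adm), all tested with limma, none passed in any comparison, 2 (Clu and Smpx) had an unadjusted p under 0.05 in CDDP against Saline, and the median r with Myl7 was 0.77. The most abundant, Clu, ranged from 186 to 2440 TPM. The summed level of the list was 711 and 786 TPM in Saline 1 and 3, 4568 TPM in Saline 2 and 1104 to 4193 TPM in the other hearts. The summed level of this list therefore separated Saline 2 from the other Saline hearts as well.

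Of 11 atrial and pacemaker channels and connexins, 10 were tested, and 2 fell in CDDP against Saline, a share close to the 18.9% of all tested genes called there. Hcn4, the pacemaker channel, fell by 0.93 (limma adjusted p = 0.0160), from 1.88, 1.49 and 2.27 TPM to 0.38, 0.49 and 0.66 TPM. Cacna1g, a T-type calcium channel, fell by 1.10 (limma adjusted p = 0.0490), from 5.05, 8.00 and 4.03 TPM to 1.25, 1.89 and 3.28 TPM. Their r with Myl7 was -0.15 and 0.22, so neither tracked the atrial genes. Kcnk3 and Kcnj5, the most abundant of the list, did not pass in any comparison and had r of -0.03 and 0.59. The median r of the list was 0.40, and the lowest was -0.54 for Kcna5. Kcna5 was at 16.1 TPM in Saline 2, below the 21.8 and 28.2 TPM of Saline 1 and 3. Of 12 transcription factors and signals of the atria, sinus node and venous pole, 11 were tested with limma and none passed, with 3 (Nkx2-5, Bmp4 and Gata4) at an unadjusted p under 0.05 in CDDP against Saline. Tbx5 (r = 0.834) was the one with an r over 0.8, the median r was 0.56, and the lowest was -0.32 for Tbx3. Nkx2-5 and Gata4, active in muscle of both chambers, were the most abundant, with r of 0.06 and -0.08.

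Ventricular muscle genes mostly had negative r. Myl2 and Myl3 had r of -0.68 and -0.75 with Myl7 and were lowest in Saline 2 or CDDP 3, and the median r of the 10 genes was -0.52. Irx5, a ventricular transcription factor, fell by 0.72 in CDDP against Saline (limma adjusted p = 0.0381). Myh7, the slow myosin heavy chain, was lower by 4.37 in STING-/- than in Saline hearts (limma adjusted p = 0.0290), at 63.0, 43.1 and 45.0 TPM against 550, 1742 and 1190 TPM. Their r with Myl7 was -0.56 and -0.30. Genes of both chambers had a median r of -0.07. Of these 11 genes, Tnnt2 rose by 0.56 and Casq2, Tpm1 and Actc1 fell by 1.82, 0.54 and 3.55 in CDDP against Saline, and none passed elsewhere.

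The other genes of natriuretic peptide signalling had a median r of 0.31 with Myl7. Nppb, which encodes the related B-type peptide, was at 456, 1175 and 513 TPM in Saline hearts, 363, 39.6 and 82.1 TPM in CDDP hearts, 165, 162 and 432 TPM in STING-/- hearts and 31.9, 128 and 15.3 TPM in STING-/-+CDDP hearts, with r = 0.03 with Myl7. Npr3, the clearance receptor, followed Myl7 (r = 0.845). Corin, the protease that activates the Nppa product, had r = 0.48. Of 12 listed genes 11 were tested, and Mme and Prkg1, a peptidase that degrades these hormones and a kinase downstream of their receptors, fell in CDDP against Saline by 0.95 and 0.94 (limma adjusted p = 0.0162 and 0.0220). Of 11 receptors and partners of BMP10, 10 were tested with limma and none passed in any comparison, with 1 or 2 at an unadjusted p under 0.05 in each and a median r of 0.42. Tcap was the most abundant (1015 to 3562 TPM, r = 0.814), and Id1, a target of BMP signalling, had an r of -0.00.

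Markers of other cells that a heart sample can hold were read beside them. The 8 genes of epicardium and mesothelium summed to 193 TPM in Saline 2 against 46.2 and 35.2 TPM in Saline 1 and 3, and to 35.8 to 188.5 TPM in the other hearts, with a median r of 0.66. With limma 0 of these 8 were called, and 0 had an unadjusted p under 0.05 in any comparison. Their most abundant genes, Msln and Upk3b, had r of 0.745 and 0.608. The 6 tested adipocyte genes had a median r of 0.65, with Cfd at 0.801 and Fabp4 at -0.605, and in CDDP against Saline Cidea rose by 0.85 and Fabp4 fell by 1.18. In STING-/- against Saline none of the 6 was called, with a median difference of 1.68. There 5 of the 6 had an unadjusted limma p under 0.05, where 3.69% of all tested genes did. Vascular smooth muscle genes, summed at 731 to 1634 TPM, had a median r of 0.38, and Acta2 had 0.09. The largest part of that sum in every heart was Des (476 to 1241 TPM), so the sum is not a measure of smooth muscle. Des, which heart muscle also expresses, rose by 1.15 in CDDP against Saline and by 0.64 in STING-/-+CDDP against STING-/-, and Smtn fell by 0.95 in the former. Of the 8 autonomic nerve genes 3 were tested, and Dbh fell by 2.34 in CDDP against Saline. The 5 lung and airway genes summed to no more than 1.56 TPM in any heart and none was tested. All 5 blood genes, globins and Alas2, fell in CDDP against Saline by 3.81 to 5.64, and their r with Myl7 ran from -0.472 to -0.359. The part of any of these tissues in the differences of the 7 atrial genes was not tested.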

How the data were processed

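Cardiac RNA of 12 mouse hearts was profiled by RNA-seq. The authors deposited 1 table that gives TPM (transcripts scaled by length to a fixed total) of every gene in each heart, with values rounded to 2 decimals. The submitters' processing notes list fastp, HISAT, RSEM and GRCm38.p5, with no roles, and the annotation release is not given in the sources used here. TPM is already scaled by gene length and to a fixed total, so depth is unknown and a large gain in abundant genes lowers all others. The authors' gene length column was used for identity only, and their 4 columns of group means were not used.

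The genotype and treatment in the labels set the groups. The 7 genes and all lists were chosen with earlier results of these data known. The 13815 genes that reached a TPM of 1 in no fewer than 3 hearts entered limma 3.58.1 in R 4.3.3 on log2(TPM + 1), in 1 fit of 4 groups with an eBayes trend, two-sided, and p-values were adjusted by Benjamini-Hochberg over all tested genes. The script was tested on simulated data. Shares and ratios were compared by exact permutation tests in scipy 1.17.1 under Python 3.11.15. Correlations with Myl7 used 100000 permutations. Figures were drawn with matplotlib 3.10.9. Gene positions came from GENCODE M21 (GRCm38) and promoters from RefSeq.

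The genes named were the 7 members, the 12 tested genes with the highest r with Myl7, and, of each list, the 2 with the highest mean TPM and every gene that passed. Other genes named (Hcn4 and Cacna1g aside, Npr3, Tbx5, Cfd, Mybphl as an example, the lowest r values and those at an unadjusted p) were chosen after their values were seen, as were the percents of Myl7 and the fit at equal Myl7. Some genes of the lists are not reported here. No 2 hearts of a group had equal TPM in more than 1.01% of tested genes. Alternatives were the pseudocount, the filter, scaling between hearts, mitochondrially encoded genes left out, weights, the groups fitted, a replicate block and each heart left out.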

Additional observations from a re-analysis of the deposited data

How the results depend on the processing

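The count of members called stayed at 0 of 7 in every contrast under another pseudocount, filter, scaling or prior, and with the replicate block. It became 1 in STING-/-+CDDP against STING-/- when only these groups were fitted and when hearts were weighted, Bmp10 in both (limma adjusted p = 0.0131 and 0.0196). Leaving out 1 heart at a time, it ran from 0 to 4 in CDDP against Saline, and from 0 to 1 in STING-/- against Saline and in STING-/-+CDDP against STING-/-, each time upwards without Saline 2.

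The following differences between group means changed sign, none of them past the threshold. With weights they were 0.56, 0.39 and 0.080 for Myl7, Myl4 and Dkk3 in STING-/-+CDDP against CDDP, and 0.82 and 0.076 for Bmp10 and Nr2f2 in CDDP against Saline. The Nr2f2 interaction was 0.076 with median-of-ratios scaling and 0.10 with quantile normalization. With a heart left out, CDDP against Saline ran from -0.16 to 3.05 for Nppa, -2.27 to 1.53 for Bmp10 and -0.56 to 0.20 for Nr2f2. STING-/-+CDDP against CDDP ran from -2.11 to 0.47 for Myl7, -2.03 to 0.29 for Myl4, -1.35 to 0.33 for Dkk3 and -0.23 to 0.42 for Nr2f2. For Nr2f2 the ranges were -0.20 to 0.50 in STING-/- against Saline, -0.54 to 0.020 in STING-/-+CDDP against STING-/- and -0.44 to 0.32 for the interaction.

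As log2 of the ratio of the light chain pair, CDDP and STING-/- stood above Saline by 3.68 and 4.52 for Myl7 and by 3.76 and 4.70 for Myl4 (exact permutation p = 0.4 for each), whereas their mean percents were below. With a heart left out, the Myl7 share differed by -15.6 to 10.5 percentage points in CDDP against Saline, -14.6 to 11.5 in STING-/- against Saline and -9.40 to 2.81 in STING-/-+CDDP against CDDP. For the Myl4 share these were -15.9 to 13.7, -13.2 to 16.5 and -12.01 to 3.03. The correlation of Bmp10 with Myl7 fell to 0.591 (adjusted permutation p = 0.0711) without the 2 hearts farthest from the median of Myl7. The cause of these changes was not tested.

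Same-numbered hearts did not deviate together: 4 of 18 correlations were over 0.1, from -0.333 to 0.261, so the numbers do not pair hearts. The replicate block gave 0 of 7 members called in each contrast, and it called 2175 of all genes in CDDP against Saline (2610 without it), 67 in STING-/-+CDDP against CDDP (168), 114 in STING-/-+CDDP against STING-/- (129) and 5 in STING-/- against Saline (10). Counts over all genes ran from 822 with the compared groups alone to 3904 with quantile normalization in CDDP against Saline, and from 11 with STING-/-+CDDP 2 left out to 671 with quantile normalization in STING-/-+CDDP against CDDP. In the latter, 50 of the 168 calls were higher, against 276 of 655 with median-of-ratios scaling and 314 of 671 with quantile normalization. In STING-/-+CDDP against STING-/-, 35 of 129 were higher, against 127 of 250 and 166 of 297. The median log2 difference of all genes in that contrast was -0.11, and 0.0071 and 0.015 under these scalings. Without the filter these contrasts and STING-/- against Saline gave 12, 46 and 4 calls, with the compared groups alone the former pair gave 38 and 204, and without mitochondrially encoded genes STING-/-+CDDP against CDDP gave 312. Weights gave 29 for STING-/- against Saline and 613 for STING-/-+CDDP against STING-/-. With 3 hearts per group and SDs of several log2 units, the light chains, Sln and Nppa could be compared between groups with little precision.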
